A study of Homo sapiens with 10 samples.

Results

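The 42 genes described here encode proteins that take glucose into the cell, split it to pyruvate, make lactate, pass pyruvate to the mitochondrion or run the pentose phosphate pathway. They were taken by name from a list of glucose metabolism genes that was chosen with earlier results of these data known. All 42 were found among the 56301 gene symbols of the deposited RNA count files. All were measured in SNU398, an established human hepatocellular carcinoma line kept in RPMI medium with fetal bovine serum. Cells of 2 libraries received a short hairpin RNA against SALL4, a zinc finger protein that controls transcription in the early embryo and the fetal liver, and cells of the other 2 received a scrambled hairpin. The labels call the SALL4 hairpin shRNA-2, so the knockdown rests on 1 hairpin in 1 line, and all RNA was taken 72 hours after transduction. SALL4 binding was mapped in the same line, without a hairpin named in the labels, by CUT&RUN, a method that releases and sequences the DNA next to an antibody-bound factor (3 libraries; the 3 IgG libraries are not analysed here).

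Glycolysis first spends ATP in a preparatory phase, in which hexokinases trap glucose and phosphofructokinase commits it to breakdown, and then regains ATP in a payoff phase that ends at pyruvate. Lactate dehydrogenase turns pyruvate into lactate and regenerates NAD+, whereas the pyruvate dehydrogenase complex turns it into acetyl-CoA inside the mitochondrion, under the brake of pyruvate dehydrogenase kinases. Most tumour lines run glycolysis in the presence of oxygen, and when oxygen is low the hypoxia-inducible factor (HIF) raises many of these genes by binding a short motif with the core ACGTG or GCGTG.

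The knockdown libraries held 188016864 (replicate 1) and 225624957 (replicate 2) gene counts and the scramble libraries 203013433 (replicate 1) and 158934493 (replicate 2). The targeted gene, SALL4, was at 21.6 and 18.7 CPM (counts scaled to a common library size) in the knockdown libraries and at 74.5 and 58.7 CPM in the scramble libraries, or -1.72 as a log2 fold change, by edgeR's quasi-likelihood test with Benjamini-Hochberg adjustment (SE 0.19, adjusted p = 5.84e-06). The labels do not state whether replicates were separate cultures. The p-values therefore reflect only how far these libraries spread, and that spread may be technical. Replicates differed far beyond counting error, with a chi-square of 162 per degree of freedom between the knockdown libraries and 166 between the scramble libraries. Of 8 hepatic markers only GPC3 reached 1 CPM in all 4 libraries, while ALB, AFP and HNF4A stayed at or under 0.723, 0.0509 and 0.0252 CPM, so the defining liver genes were near 0. EPCAM was at 19.7 to 32.4 CPM with KRT8, KRT18 and KRT19 near 0. The fibroblast collagen COL3A1 was at 768 to 887 CPM, with 3 of 4 fibroblast markers at 1 CPM or more in every library. The summed fibroblast markers, nearly all COL3A1, were at 893 and 848 CPM in the knockdown libraries and at 775 and 805 CPM in the scramble libraries. COL1A2 was at 2.09 and 2.83 CPM against 1.90 and 2.00 CPM, in the same order. COL1A1 and PDGFRB lay the other way, at 3.78 and 3.17 CPM against 5.18 and 8.11 CPM and at 0.169 and 0.353 CPM against 0.494 and 0.679 CPM. Leukocyte markers (0 of 4) and endothelial markers (0 of 3) did not reach 1 CPM in all libraries, and their sums stayed at or under 0.541 and 0.225 CPM. The part of these levels in the results below was not tested.

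Promoter windows are shown for the 5 genes that changed on knockdown and have an entry, HK1, HK2, LDHA, LDHB and SLC16A3, and for MPC2, whose window lies inside a SALL4 region; MPC2 was chosen after its values were seen. Each window runs from 250 bases before to 50 after the start given by RefSeq (GRCh38.p14, the same build as hg38), 300 bases, 5′ to 3′ on the gene's strand. The table holds 1 start per gene, and whether these cells use that start was not tested. Capitals mark the letters ACGTG or GCGTG on either strand, including those inside CACGTG. The windows are chr10:69269750-69270049 (plus strand) for HK1, chr2:74833877-74834176 (plus) for HK2, chr11:18394313-18394612 (plus) for LDHA, chr12:21657793-21658092 (minus) for LDHB, chr17:82228185-82228484 (plus) for SLC16A3 and chr1:167935947-167936246 (minus) for MPC2.
HK1: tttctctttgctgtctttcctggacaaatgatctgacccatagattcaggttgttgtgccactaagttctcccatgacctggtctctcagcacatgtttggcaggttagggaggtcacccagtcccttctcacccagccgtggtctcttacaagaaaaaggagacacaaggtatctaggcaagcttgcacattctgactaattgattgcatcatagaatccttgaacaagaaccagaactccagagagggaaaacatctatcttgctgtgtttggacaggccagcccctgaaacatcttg
HK2: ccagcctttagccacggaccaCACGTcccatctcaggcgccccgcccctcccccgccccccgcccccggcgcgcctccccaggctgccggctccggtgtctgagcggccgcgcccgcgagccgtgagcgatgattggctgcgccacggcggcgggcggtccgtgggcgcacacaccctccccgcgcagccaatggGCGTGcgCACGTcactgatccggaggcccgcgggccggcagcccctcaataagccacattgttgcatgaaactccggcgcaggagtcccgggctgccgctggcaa
LDHA: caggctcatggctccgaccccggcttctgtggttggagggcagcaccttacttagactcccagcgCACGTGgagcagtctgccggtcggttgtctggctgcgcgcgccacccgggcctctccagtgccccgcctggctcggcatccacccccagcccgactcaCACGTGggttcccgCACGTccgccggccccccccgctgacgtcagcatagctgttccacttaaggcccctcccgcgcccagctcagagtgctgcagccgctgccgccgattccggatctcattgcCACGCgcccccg
LDHB: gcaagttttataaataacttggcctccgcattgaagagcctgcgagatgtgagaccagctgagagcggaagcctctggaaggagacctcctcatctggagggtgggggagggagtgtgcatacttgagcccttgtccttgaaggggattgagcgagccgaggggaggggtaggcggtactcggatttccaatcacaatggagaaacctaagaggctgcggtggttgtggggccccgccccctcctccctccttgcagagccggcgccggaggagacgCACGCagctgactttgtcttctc
SLC16A3: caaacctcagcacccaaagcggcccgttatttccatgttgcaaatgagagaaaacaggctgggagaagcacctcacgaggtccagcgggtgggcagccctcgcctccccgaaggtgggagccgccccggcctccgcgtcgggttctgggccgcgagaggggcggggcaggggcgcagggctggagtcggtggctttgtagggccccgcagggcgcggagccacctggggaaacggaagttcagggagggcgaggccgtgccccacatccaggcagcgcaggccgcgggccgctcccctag
MPC2: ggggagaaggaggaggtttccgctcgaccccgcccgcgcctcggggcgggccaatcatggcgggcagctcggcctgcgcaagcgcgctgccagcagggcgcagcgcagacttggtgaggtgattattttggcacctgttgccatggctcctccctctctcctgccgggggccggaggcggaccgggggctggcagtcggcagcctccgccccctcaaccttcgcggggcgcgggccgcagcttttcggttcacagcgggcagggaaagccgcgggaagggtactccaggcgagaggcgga

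The window of LDHA held 4 separate matches, of which 2 were the longer palindrome CACGTG, and that of HK2 held 3. LDHB had 1 match, 27 bases after its start, and HK1, SLC16A3 and MPC2 had none. Of the 38 genes with a window in the table, 24 (63.2%) held ACGTG or GCGTG on either strand, against 55.9% of 15843 windows of the same length. ACGTG alone stood in 13 windows (34.2%, against 23.7% of all), GCGTG in 19 (against 44.1% of all) and CACGTG, which contains ACGTG, in 5 (13.2% against 8.88%). Median GC content was 69.8% in the 38 windows and 62.7% in all, and both cores are rich in G and C; the part of GC content in the counts was not tested. AATATT, an AT-rich word of the kind SALL4's zinc fingers are known to prefer, stood in 0 of the 38 windows and in 4.48% of all. A match is only a run of letters in this window.

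The comparison of the hairpins asked which of these transcripts differed 72 hours after SALL4 was lowered. HK1 and HK2, which phosphorylate incoming glucose, fell on knockdown together with the transporter SLC2A3, the lactate dehydrogenase subunit LDHA and the lactate exporter SLC16A3, by 1.62-fold (HK2, LDHA) to 2.73-fold (SLC16A3) in the ratio of mean CPM. LDHB, the other lactate dehydrogenase subunit, rose from a level near 0. Scramble replicate 2 was the library in which most glycolytic genes stood highest. Without it the 5 decreases were smaller and lost their calls, in an edgeR fit that tested all 42 genes. In that fit, which no other tool was run on, 4 were lower at an unadjusted p under 0.05 (background 6.46%). The sizes of the decreases changed unequally: LDHA went from -0.70 to -0.62 on the log2 scale, HK1 from -0.79 to -0.61, SLC2A3 from -0.87 to -0.59, HK2 from -0.69 to -0.42 and SLC16A3 from -1.45 to -0.80. LDHA lost its call when any 1 of the 4 libraries was left out, and HK1, HK2, SLC2A3 and SLC16A3 each lost theirs without at least 1 knockdown library too. All 42 genes passed the filter on low counts, LDHB only through its knockdown libraries, the group in which it is higher. With all 4 libraries, 5 of 42 were called lower at an adjusted p under 0.05 (background 3.25% of 25807 genes) and 1 of 42 higher (background 2.31%). In the same fit, 15 of 42 had an unadjusted p under 0.05, against 18.1% of all genes. Their median log2 fold change was -0.28, against 0.0015 for all genes tested, and 32 of 42 were below 0, against 49.8% of all genes. The knockdown libraries both lay below both scramble libraries in 17 of the 42 genes, a state found in 22.9% of all genes, and both above in 4, against 24.2%. In bulk RNA, fewer cells of a kind and less RNA per cell cannot be told apart.

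**Figure D1:**
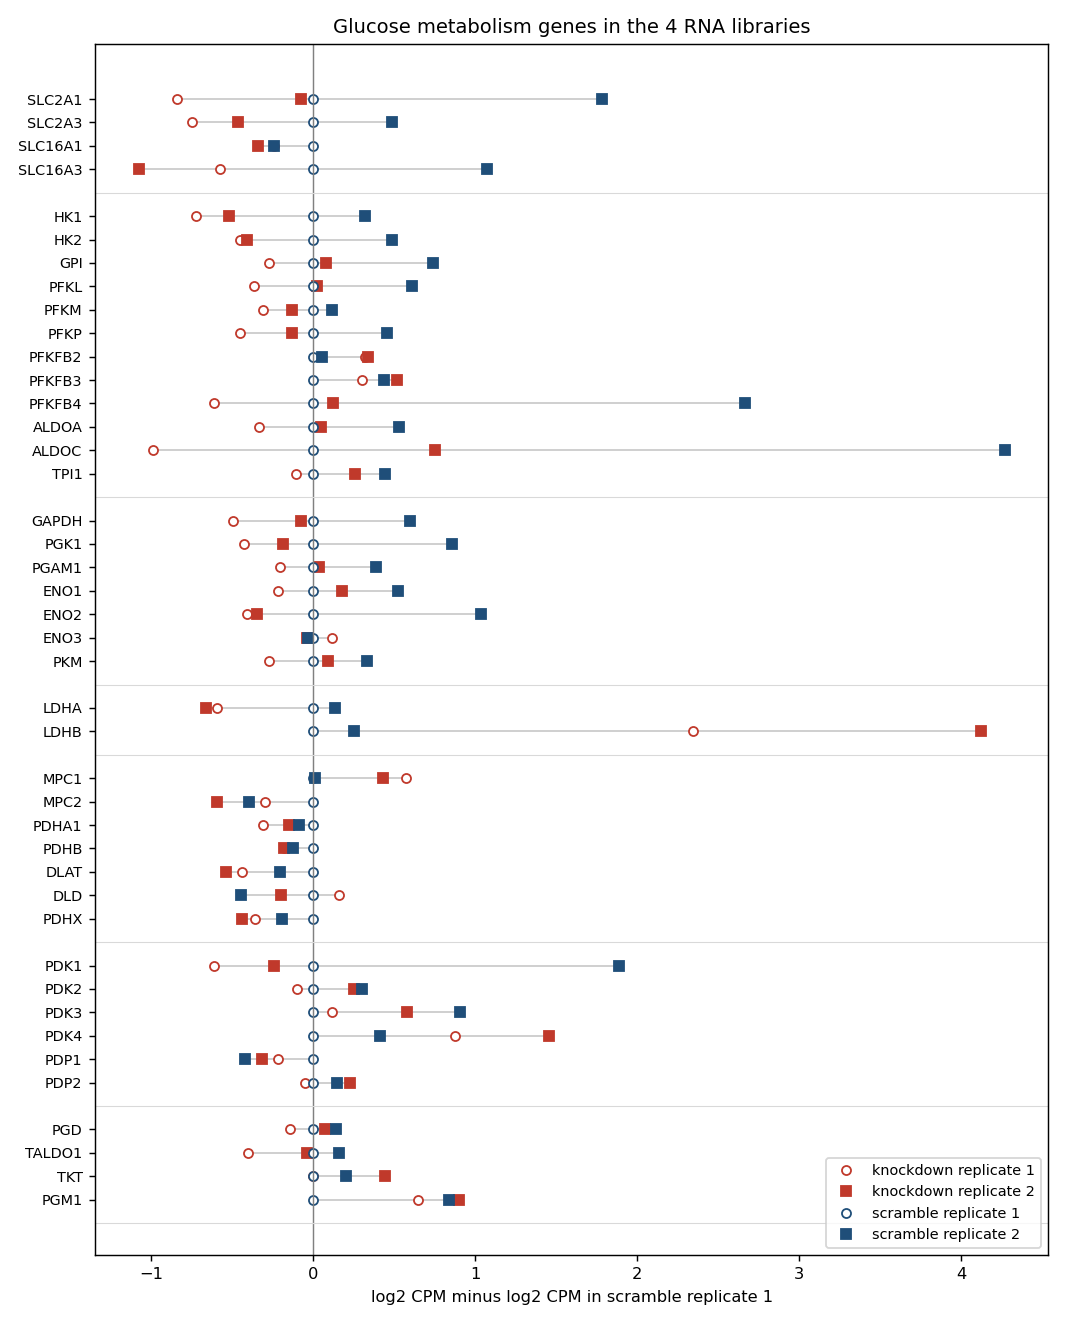
Level of each of the 42 genes in the 4 RNA libraries, as log2 CPM minus log2 CPM in scramble replicate 1 (grey line at 0), grouped by role from transport at the top to the pentose phosphate pathway at the bottom. Circles are replicate 1 and squares replicate 2, red for knockdown and blue for scramble; scramble replicate 2 was the highest of the 4 libraries in 25 of 42 genes.

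Among the 4 transporters, SLC2A3, the high-affinity glucose transporter GLUT3, was at 84.5 and 103 CPM in knockdown replicates 1 and 2 and at 142 and 199.6 CPM in scramble replicates 1 and 2. The groups did not overlap, and the log2 fold change was -0.87 (edgeR adjusted p = 0.00859, SE 0.20). It was -0.59 without scramble replicate 2 (adjusted p = 0.176; range over all alternatives 9.21e-07 to 0.176), and the call was also lost without knockdown replicate 1 (adjusted p = 0.0723). SLC16A3 (MCT4), which carries lactate out of glycolytic cells, was low, with 224 and 171 reads (1.12 and 0.785 CPM) in the knockdown libraries and 328 and 560 reads (1.67 and 3.52 CPM) in the scramble libraries. Scramble replicate 2 stood apart and the knockdown libraries were the lowest, giving a log2 fold change of -1.45 (edgeR adjusted p = 0.0188, SE 0.35). Without scramble replicate 2 it was -0.80 (adjusted p = 0.386, range over the alternatives 3.76e-07 to 0.386), and the adjusted p was 0.0737 without knockdown replicate 2 and 0.0867 on the combined count matrix. The span of SLC16A3 overlaps that of CSNK1D, which had 12447 to 20954 reads per library, and as the strand setting of the counting is not given in the sources used here, reads of the 2 genes may not be separated.

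SLC2A1, the basal glucose transporter GLUT1, did not pass the test. It was at 13.1 and 22.4 CPM in the knockdown libraries, 23.6 CPM in scramble replicate 1 and 81.2 CPM in scramble replicate 2. Knockdown replicate 2 thus lay next to scramble replicate 1, and scramble replicate 2 stood 3.44-fold above its replicate. The log2 fold change of -1.56 had an SE of 0.90 (edgeR adjusted p = 0.562), and it was -0.40 without scramble replicate 2. Without scramble replicate 1 it was -2.19 and called (adjusted p = 6.01e-15, range over the alternatives 1.92e-20 to 0.829). SLC16A1 (MCT1), a lactate and pyruvate carrier, was at 269.8 and 251 CPM in the knockdown libraries and 319 and 269.7 CPM in the scramble libraries. These groups touched, with a log2 fold change of -0.18 (edgeR adjusted p = 0.704, SE 0.18).

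In the preparatory phase, 2 of 12 genes were called, both lower (background 3.25%), with a median log2 fold change of -0.50. HK1, the hexokinase of most tissues, was at 158 and 182 CPM in the knockdown libraries and at 261 and 326 CPM in the scramble libraries. Both knockdown libraries were lower than both scramble libraries, by a log2 fold change of -0.79 (edgeR adjusted p = 0.012, SE 0.19). Without scramble replicate 2 it was -0.61 (adjusted p = 0.162; range over the alternatives 4.64e-05 to 0.162), and without knockdown replicate 1 the adjusted p was 0.0848. HK2, the hexokinase that many tumours raise, was at 47.2 and 48.6 CPM in the knockdown libraries and at 64.5 and 90.4 CPM in the scramble libraries. The knockdown libraries were close together and the scramble libraries apart, with a log2 fold change of -0.69 (edgeR adjusted p = 0.0303, SE 0.19). That call was lost without scramble replicate 2 (adjusted p = 0.472, log2 fold change -0.42), without knockdown replicate 1 (0.126) or 2 (0.0816), under a filter of 5 CPM (0.0792) and on the combined matrix (0.0661), the range over all alternatives being 2.41e-05 to 0.472.

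PFKP, the platelet type of phosphofructokinase, was at 196 and 245 CPM in the knockdown libraries and at 268 and 367 CPM in the scramble libraries. Its groups did not overlap, but the log2 fold change of -0.53 (SE 0.20) did not pass (edgeR adjusted p = 0.128), and it was -0.28 without scramble replicate 2. ALDOA, the main aldolase outside liver and brain, was at 985 and 1284 CPM in the knockdown libraries and at 1241 and 1789 CPM in the scramble libraries. Knockdown replicate 2 lay above scramble replicate 1, and the log2 fold change was -0.42 (edgeR adjusted p = 0.322, SE 0.22). The hexose isomerase GPI, the liver and muscle phosphofructokinases PFKL and PFKM and the triose isomerase TPI1 had log2 fold changes of -0.50, -0.50, -0.28 and -0.15, none past the threshold. PFKFB2 and PFKFB3, which make the phosphofructokinase activator fructose 2,6-bisphosphate, had positive values of 0.30 and 0.18, again not past it.

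PFKFB4, another enzyme of that activator, and ALDOC, the brain aldolase, are named because of scramble replicate 2, after their values were seen. PFKFB4 was at 11.4 and 18.9 CPM in the knockdown libraries, 17.4 CPM in scramble replicate 1 and 110.8 CPM in scramble replicate 2, 6.36-fold above its replicate. ALDOC was at 1.17 and 3.95 CPM in the knockdown libraries, 2.34 CPM in scramble replicate 1 and 45.4 CPM in scramble replicate 2. In both genes the groups overlapped, since knockdown replicate 2 lay above scramble replicate 1 and the last library stood alone. The log2 fold change of ALDOC was -3.22 with an SE of 2.11 (edgeR adjusted p = 0.614) and turned to 0.14 without scramble replicate 2. That of PFKFB4 was -2.08 with an SE of 1.29 (edgeR adjusted p = 0.593) and was -0.19 without that library.

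Of the 7 payoff-phase genes, 0 were called in either direction by edgeR in the fit of all 4 libraries, and 3 had an unadjusted p under 0.05, all lower (background 18.1% in either direction). Without the low-count filter edgeR called GAPDH, PGK1 and ENO2 lower (background 2.52% lower), and DESeq2 called PGK1 and ENO2 lower (background 5.68% lower). PGK1, which makes the first ATP of the phase, was at 385 and 456 CPM in the knockdown libraries and at 519 and 941 CPM in the scramble libraries. The groups did not overlap, with a log2 fold change of -0.80 (edgeR adjusted p = 0.0815, SE 0.25) that was -0.29 without scramble replicate 2. ENO2, the neuronal enolase, was at 41.7 and 43.4 CPM in the knockdown libraries and at 55.3 and 114 CPM in the scramble libraries. Its log2 fold change was -0.99 (edgeR adjusted p = 0.116, SE 0.30), and -0.37 without scramble replicate 2.

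GAPDH, the dehydrogenase often used as a reference transcript, was at 1125 and 1502 CPM in the knockdown libraries and at 1584 and 2397 CPM in the scramble libraries. The knockdown libraries were the lower pair, by a log2 fold change of -0.60 (edgeR adjusted p = 0.138, SE 0.23) that was -0.26 without scramble replicate 2 and -0.38 on the combined matrix. The 61 GAPDH pseudogene symbols in the files held at most 0.386% as many reads as GAPDH itself. ENO1, the common enolase, was at 2183 and 2871 CPM in the knockdown libraries and at 2534 and 3637 CPM in the scramble libraries. Its groups overlapped, with a log2 fold change of -0.29 (edgeR adjusted p = 0.565, SE 0.22). The mutase PGAM1, the pyruvate kinase PKM and the muscle enolase ENO3 had log2 fold changes of -0.29, -0.25 and 0.06.

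The lactate dehydrogenase subunits moved in opposite directions. LDHA was at 475 and 452 CPM in the knockdown libraries and at 716 and 786 CPM in the scramble libraries. Replicates lay close together and the groups apart, with a log2 fold change of -0.70 (edgeR adjusted p = 0.0278, SE 0.19). Its size varied little when any 1 library was left out, from -0.76 to -0.62, but each of these 4 fits lost the call, with adjusted p-values of 0.0597 (without knockdown replicate 1), 0.108 (knockdown 2), 0.0762 (scramble 1) and 0.182 (scramble 2). On the combined matrix it was -0.52 (adjusted p = 0.0784); over all alternatives the adjusted p ran from 0.00236 to 0.182. LDHB had 50 and 192 reads in the knockdown libraries and 8 reads in each scramble library, or 0.249, 0.881, 0.0407 and 0.0503 CPM. All 4 libraries held very little LDHB, and the knockdown libraries were higher but differed from each other by 1.78 on the log2 CPM scale. Its log2 fold change was 3.63 (edgeR adjusted p = 0.00218, SE 0.62), and its size moved most with the knockdown libraries. Leaving out knockdown replicate 2 gave 2.43 (adjusted p = 0.0431) and leaving out knockdown replicate 1 gave 4.27. Leaving out scramble replicate 2 gave 3.78, with adjusted p-values of 3.45e-10 to 0.0431 over the alternatives. LDHB met the low-count filter of the fit of all 4 libraries only through its knockdown libraries, and it did not pass the filter of 5 CPM. LDHB reads were 0.0524% and 0.194% of the reads of both subunits in the knockdown libraries, and 0.00569% and 0.00640% in the scramble libraries. LDHB has processed pseudogenes, and reads on its 3 pseudogene symbols equalled 20% and 1.56% of its own reads in the knockdown libraries but 100% and 87.5% in the scramble libraries, so its scramble level in particular is uncertain.

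**Figure D2:**
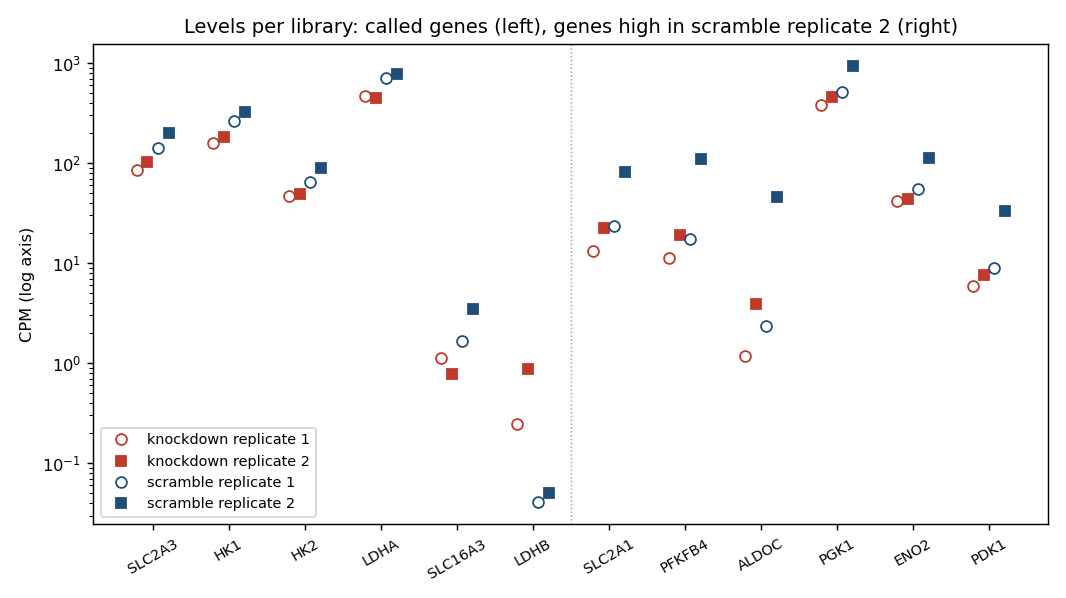
CPM on a log axis in each of the 4 RNA libraries for the 6 genes that passed the test (left of the dotted line) and 6 genes high in scramble replicate 2 (right). Open circles are replicate 1 and filled squares replicate 2, red for knockdown and blue for scramble; LDHA replicates lie close together, while ALDOC is at 45.4 CPM in scramble replicate 2 and at 1.17 to 3.95 CPM in the others.

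The 7 genes that bring pyruvate into the mitochondrion and convert it there included 0 called in either direction in the fit of all 4 libraries with group as the only term, by edgeR or by DESeq2. At an unadjusted edgeR p under 0.05 there were 2 of 7, MPC1 and DLAT, against 18.1% of all genes. MPC1 and MPC2 form the mitochondrial pyruvate carrier. MPC1 was at 24.9 and 22.5 CPM in the knockdown libraries and at 16.7 and 16.8 CPM in the scramble libraries, so the knockdown libraries were the higher pair, by a log2 fold change of 0.50 (edgeR adjusted p = 0.147, SE 0.19). MPC2 was at 34.1 and 27.8 CPM in the knockdown libraries and at 41.9 and 31.8 CPM in the scramble libraries, where the groups overlapped (log2 fold change -0.25, edgeR adjusted p = 0.566, SE 0.20).

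DLAT, the acetyltransferase core of the complex, was at 162 and 152 CPM in the knockdown libraries and at 220.0 and 191 CPM in the scramble libraries. The groups did not overlap, and the log2 fold change of -0.39 (SE 0.18) did not pass (edgeR adjusted p = 0.245). PDHA1 and PDHB, the subunits of the decarboxylase, had log2 fold changes of -0.18 and -0.12. PDHX, which anchors the dihydrolipoamide dehydrogenase, was at -0.31, and DLD, that dehydrogenase itself, was at 0.20.

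Among the kinases that switch the complex off and the phosphatases that switch it on, 0 of 6 were called by edgeR or DESeq2 in that fit, and 1 of 6, PDK4, had an unadjusted edgeR p under 0.05 (background 18.1%). PDK1, the kinase known as a HIF target, was at 5.89 and 7.59 CPM in the knockdown libraries, 9.0 CPM in scramble replicate 1 and 33.4 CPM in scramble replicate 2. The last library stood 3.71-fold above its replicate, the groups did not overlap, and the log2 fold change was -1.65 (edgeR adjusted p = 0.52, SE 0.87). Without scramble replicate 2 it was -0.41, and without scramble replicate 1 it was -2.31 and called (adjusted p = 1.68e-14, range over the alternatives 1.68e-14 to 0.805). PDK4, a kinase raised in fasting, was low, with 88 and 144 reads (0.438 and 0.661 CPM) in the knockdown libraries and 46 and 50 reads (0.234 and 0.314 CPM) in the scramble libraries. The knockdown libraries were the higher pair, with a log2 fold change of 1.01 (edgeR adjusted p = 0.165, SE 0.40). PDP1, a phosphatase, was at 52.1 and 48.6 CPM in the knockdown libraries and at 60.6 and 45.3 CPM in the scramble libraries, with groups that overlapped (log2 fold change -0.07, edgeR adjusted p = 0.909, SE 0.19). PDK2, PDK3 and PDP2 had log2 fold changes of -0.07, -0.15 and 0.02.

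Of the 4 genes of the pentose phosphate pathway and glycogen entry, 0 were called by edgeR or DESeq2 in the fit of all 4 libraries with group as the only term, and 0 had an unadjusted p under 0.05. TKT, the transketolase that links the pathway back to glycolysis, was at 369 and 503 CPM in the knockdown libraries and at 369.9 and 426 CPM in the scramble libraries. The groups overlapped, with a log2 fold change of 0.13 (edgeR adjusted p = 0.817, SE 0.20). PGD, the oxidative enzyme that makes NADPH, had a log2 fold change of -0.11 and TALDO1, the transaldolase, one of -0.29. PGM1, which joins glycogen and glycolysis, was at 71.8 and 85.6 CPM in the knockdown libraries, 45.9 CPM in scramble replicate 1 and 82.0 CPM in scramble replicate 2. Its groups overlapped, with a log2 fold change of 0.30 (edgeR adjusted p = 0.591, SE 0.24); without scramble replicate 2 it was 0.79 and called higher (adjusted p = 0.0469, range over the alternatives 0.0469 to 0.959).

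The scramble libraries differed from each other along the roles of these genes. Scramble replicate 2 was above scramble replicate 1 in 33 of 42 genes (background 50.6%), with a median log2 difference of 0.36 against 0.0065 for all genes tested. It was the highest of the 4 libraries in 25 of 42 (background 26.4%) and at least 2-fold above its replicate in 6 (background 5.37%), namely SLC2A1, SLC16A3, PFKFB4, ALDOC, ENO2 and PDK1. The log2 difference of ALDOC, 4.27, was the highest among all 25807 genes tested. These are values of 1 library against 1, with no test.

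By role, the 19 genes of the glycolytic phases had a median log2 difference of 0.49 between scramble replicates 2 and 1, and 18 of 19 were higher in replicate 2, ENO3 being the exception at -0.03. In the preparatory phase it was 12 of 12 (median 0.47) and in the payoff phase 6 of 7 (median 0.52). The 7 genes of pyruvate entry and the dehydrogenase lay the other way, with a median of -0.20, and 1 of 7, MPC1, was higher in scramble replicate 2, by 0.01. Scramble replicate 2 was the highest library in 16 of the 19 genes of the glycolytic phases and in 0 of these 7. Medians were 0.78 in the 4 transporters, 0.35 in the kinases and phosphatases and 0.18 in the pentose phosphate and glycogen entry genes.

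Over the 42 genes the knockdown libraries showed a smaller difference of the same sign. Knockdown replicate 2 was above replicate 1 in 31 of 42 genes (background 51.7%), with a median of 0.25 against 0.02 for all genes. The split by role was similar. Knockdown replicate 2 was higher in 18 of the 19 genes of the glycolytic phases (median 0.32), including 12 of 12 in the preparatory phase (median 0.34). It was higher in 1 of the 7 pyruvate entry and dehydrogenase genes (median -0.10). Medians were 0.09 in the 4 transporters, 0.36 in the kinases and phosphatases and 0.31 in the pentose phosphate and glycogen entry genes. The last 2 were not smaller than in the scramble pair. The SD of the log2 differences over the 42 genes was 0.857 in the scramble pair and 0.436 in the knockdown pair. The 42 genes together took 1.11% (replicate 1) and 1.24% (replicate 2) of all counts in the knockdown libraries, and 1.23% and 1.74% in the scramble libraries. The glycolytic phases alone took 0.863%, 1.00%, 0.961% and 1.44%, so 3 libraries were alike and scramble replicate 2 higher.

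**Figure D3:**
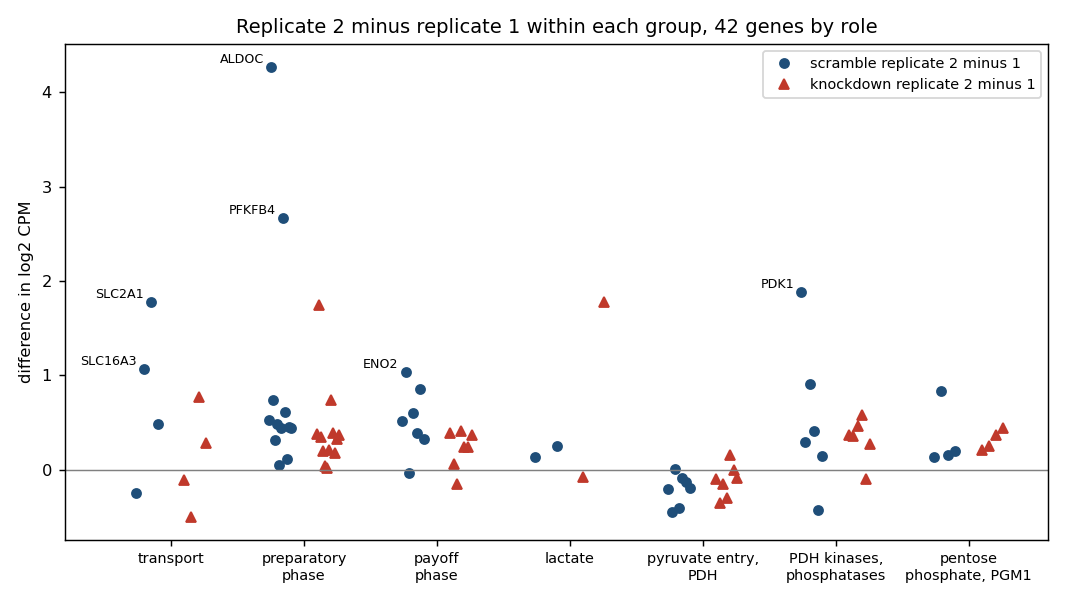
Difference in log2 CPM between replicate 2 and replicate 1 of the scramble libraries (blue circles) and of the knockdown libraries (red triangles), 1 point per gene, by role. Preparatory-phase points all lie above 0 in both pairs. The 7 pyruvate entry and dehydrogenase genes have a median of -0.20 in the scramble pair and -0.10 in the knockdown pair.

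Within enzyme families the makeup also shifted in that library. PFKFB4 gave 8.45% and 12.8% of the reads of PFKFB2, PFKFB3 and PFKFB4 in knockdown replicates 1 and 2, 15.0% in scramble replicate 1 and 50.1% in scramble replicate 2. For PDK1 among the 4 kinases the shares were 19.0% and 18.6% in the knockdown libraries, 26.4% in scramble replicate 1 and 47.4% in scramble replicate 2. SLC2A1 took 13.5%, 17.9%, 14.2% and 28.9% of the reads of SLC2A1 and SLC2A3, in the same order. HK2, by contrast, kept 19.8% to 23.0% of hexokinase reads (HK1 and HK2) in all 4 libraries. Reads were not divided by gene length, so these shares compare libraries and not genes.

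Leaving out scramble replicate 2 moved the medians of the roles unequally. With 1 scramble library left, the fit takes its spread from the knockdown pair and assumes that the lone library varies alike. The median of all 42 genes went from -0.28 to -0.16, while that of all genes tested went from 0.0015 to 0.02, and 27 of 42 were then below 0. For the transporters it went from -1.16 to -0.50, for the preparatory phase from -0.50 to -0.14 and for the payoff phase from -0.29 to -0.07. The pyruvate entry and dehydrogenase genes stayed near their value, at -0.18 with all libraries and -0.22 without it. Of the 42, none was then called lower by edgeR (background 1.82%), and LDHB and PGM1 were called higher (background 1.12%). Leaving out scramble replicate 1 instead gave 13 genes called lower (background 2.85%): SLC2A1, SLC2A3, SLC16A3, HK1, HK2, GPI, PFKL, PFKFB4, ALDOC, GAPDH, PGK1, ENO2 and PDK1. It gave 1 called higher, LDHB (background 1.48%).

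**Figure D4:**
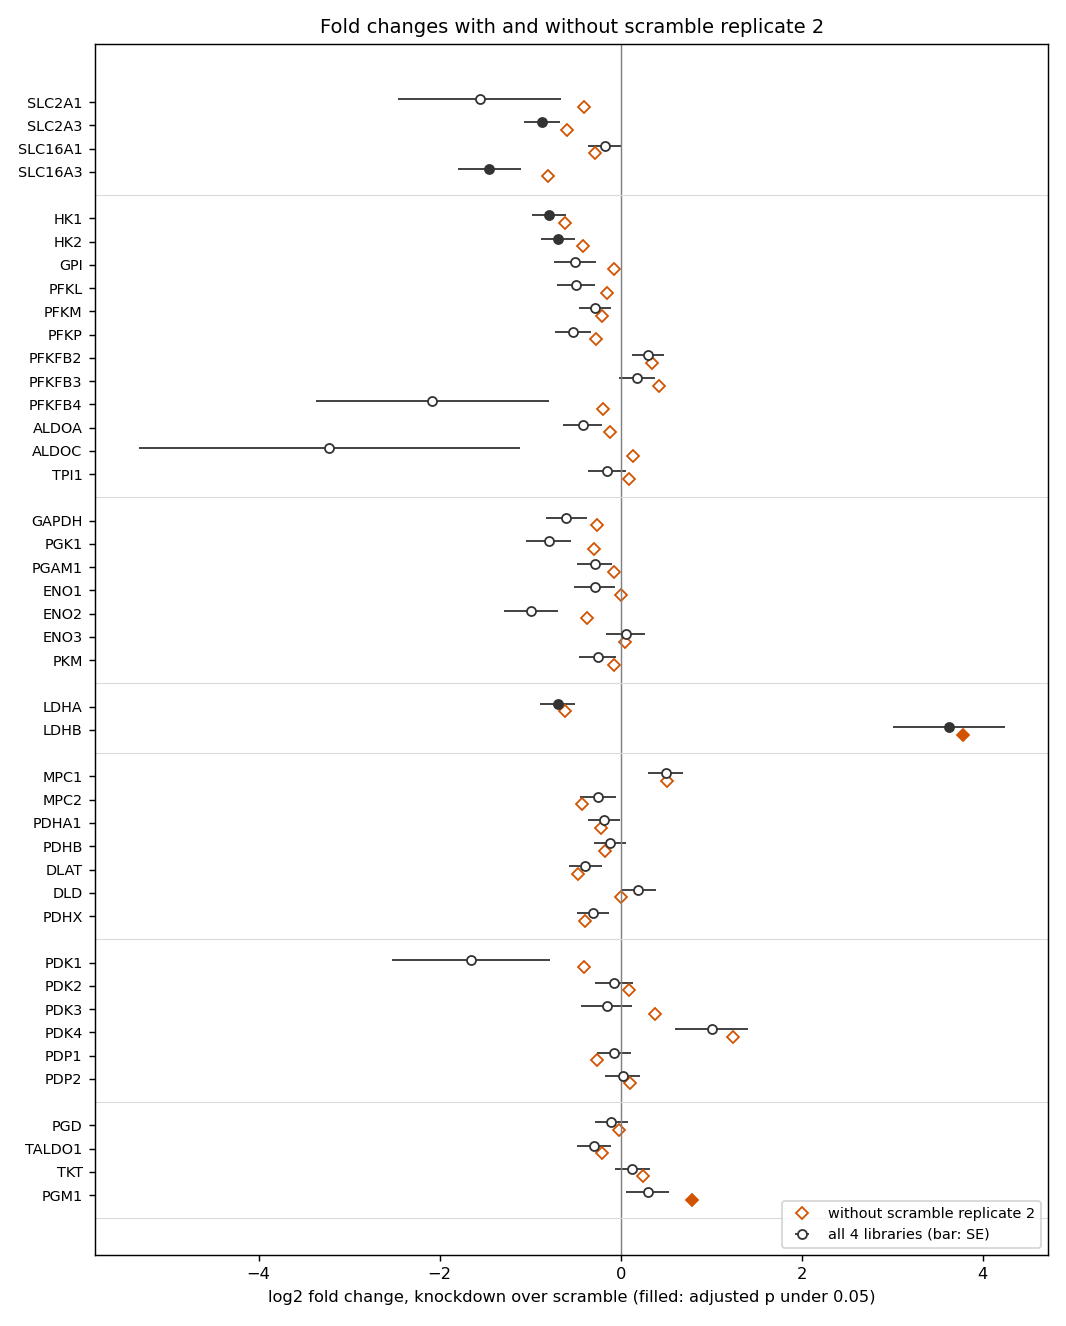
Log2 fold change of each of the 42 genes, knockdown over scramble, with all 4 libraries (black circles, bars 1 SE) and without scramble replicate 2 (orange diamonds), grouped by role; filled symbols passed an adjusted p of 0.05. ALDOC goes from -3.22 to 0.14 and HK1 from -0.79 to -0.61, while LDHB is at 3.63 and 3.78.

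The authors' deposited table of their own comparison lists 40 of the 42 genes, leaving out LDHB and PDK4. At its adjusted p under 0.05 it has 20 of 40 lower, against 19.8% of its 15141 genes, and 2 of 40 higher, PFKFB2 and MPC1, against 17.2%. In the authors' deposited table HK1 has a log2 fold change of -0.71 (adjusted p 4.06e-05), LDHA -0.51 (adjusted p 0.000715) and ALDOC -2.93 (adjusted p 0.000196). MPC1 has 0.45 (adjusted p 0.00483) in the authors' deposited table. The name of that table speaks of 3 libraries a group, and which ones entered it is not stated in the sources at hand.

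Genes next to these pathways were read from further lists, whose counts stand against 3.25% of all genes called lower and 2.31% called higher. Of 20 tested genes of glucose transport and glycolysis outside the 42, only SLC2A6, a glucose transporter of the lysosome, was called. It was at 18.9 and 25.3 CPM in the knockdown libraries and at 40.5 and 61.7 CPM in the scramble libraries, a log2 fold change of -1.21 (edgeR adjusted p = 0.00244, SE 0.22), and the call held without scramble replicate 2 at -0.87. Of 11 other pentose phosphate genes, 1 was called, RBKS, the ribokinase, at 5.26 and 6.43 CPM in the knockdown libraries against 3.29 and 3.25 CPM (log2 fold change 0.84, edgeR adjusted p = 0.0406, SE 0.24). It lost the call when any 1 library was left out. Of 18 tested genes of gluconeogenesis and glycogen, 3 fell. The glucose 6-phosphatase G6PC3 was at 11.4 and 14.04 CPM in the knockdown libraries and at 23.6 and 27.5 CPM in the scramble libraries (log2 fold change -1.01, edgeR adjusted p = 0.00313). The glycogen synthase GYS1 was at 6.29 and 6.25 CPM against 9.94 and 12.9 CPM (-0.86, edgeR adjusted p = 0.0195), and the branching enzyme GBE1 at 102 and 96.2 CPM against 156 and 187 CPM (-0.79, edgeR adjusted p = 0.0096). In all 3 the groups lay apart, and only G6PC3 was still called without scramble replicate 2, at -0.88. G6PC3 lost its call without knockdown replicate 1 (adjusted p = 0.0596, range over the alternatives 2.01e-12 to 0.0596), GYS1 also without either knockdown library and GBE1 also without knockdown replicate 2.

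Beyond pyruvate dehydrogenase, 3 of 20 genes of the citric acid cycle list fell (background 3.25%), and these calls held under every alternative, including without scramble replicate 2. IDH1, the cytosolic relative of the cycle's isocitrate dehydrogenases, was at 82.6 and 83.1 CPM in the knockdown libraries and at 281 and 323 CPM in the scramble libraries. The groups lay far apart, with a log2 fold change of -1.87 (edgeR adjusted p = 1.31e-06, SE 0.19), and it was -1.75 without scramble replicate 2. SUCLG2, the GTP-specific subunit of succinyl-CoA synthetase, was at 16.3 and 16.2 CPM in the knockdown libraries and at 65.4 and 60.5 CPM in the scramble libraries (log2 fold change -1.95, edgeR adjusted p = 1.05e-06, SE 0.19). Its ATP-specific counterpart SUCLA2 was at 34.3 and 31.5 CPM against 72.1 and 58.6 CPM (-0.99, edgeR adjusted p = 0.00179, SE 0.19). Neither SUCLG2 nor SUCLA2 was higher in scramble replicate 2 than in replicate 1. In 12 of the 20 genes the knockdown libraries lay below both scramble libraries (22.9% of all genes), and the list's median log2 fold change was -0.15.

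Of 19 HIF regulators and HIF targets outside glycolysis, 2 fell (background 3.25%) and 1 rose (background 2.31%). CA12, a membrane carbonic anhydrase, was at 10.8 and 11.8 CPM in the knockdown libraries and at 20.2 and 24.6 CPM in the scramble libraries (log2 fold change -0.99, edgeR adjusted p = 0.00375). P4HA1, a collagen prolyl hydroxylase subunit, was at 69.4 and 76.0 CPM against 115 and 153 CPM (-0.89, edgeR adjusted p = 0.00498). KDM3A, a histone demethylase, was at 93.2 and 91.7 CPM against 47.1 and 64.0 CPM (0.73, edgeR adjusted p = 0.0185), so its knockdown libraries were the higher pair. CA12 kept its call when any 1 library was left out; P4HA1 lost it without scramble replicate 2, at -0.66, and KDM3A without any of the other 3 libraries, at 0.53 to 0.74. The list had 15 of 19 genes higher in scramble replicate 2 than in replicate 1 (50.6% of all genes), with a median log2 difference of 0.29. It had 4 at least 2-fold higher (5.37% of all genes), CA9, BNIP3, ANKRD37 and P4HA2, CA9 being at most at 0.132 CPM in any library. BNIP3, a mitophagy receptor, was at 48.1 and 55.8 CPM in the knockdown libraries, 54.5 CPM in scramble replicate 1 and 150.1 CPM in scramble replicate 2. The HIF1A transcript was at 185 and 183 CPM in the knockdown libraries and at 255 and 209 CPM in the scramble libraries. It was thus not highest in scramble replicate 2 (log2 fold change -0.34, edgeR adjusted p = 0.351, SE 0.18). HIF1A protein was not measured here. BNIP3 and HIF1A are named after their values were seen. Whether oxygen, medium or cell density differed between the scramble libraries is not given in the labels, and their part was not tested.

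The glucose-sensing list held 1 gene called in each direction, of 7 (background 3.25% lower and 2.31% higher). TXNIP, which restrains glucose uptake and is induced by glucose through MLXIPL and its relative MLXIP, was at 47.3 and 69.1 CPM in the knockdown libraries and at 17.9 and 18.4 CPM in the scramble libraries. Here the scramble libraries were alike, and the log2 fold change of 1.68 (edgeR adjusted p = 1.4e-05, SE 0.20) was 1.71 without scramble replicate 2. MLXIPL, also called ChREBP, was at 1.95 and 1.63 CPM in the knockdown libraries and at 3.32 and 4.99 CPM in the scramble libraries (log2 fold change -1.21, edgeR adjusted p = 0.00832, SE 0.27). Its call was lost without scramble replicate 2 (-0.88, adjusted p = 0.202; range over the alternatives 1.25e-07 to 0.202) and without knockdown replicate 2 (-1.10).

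**Figure D5:**
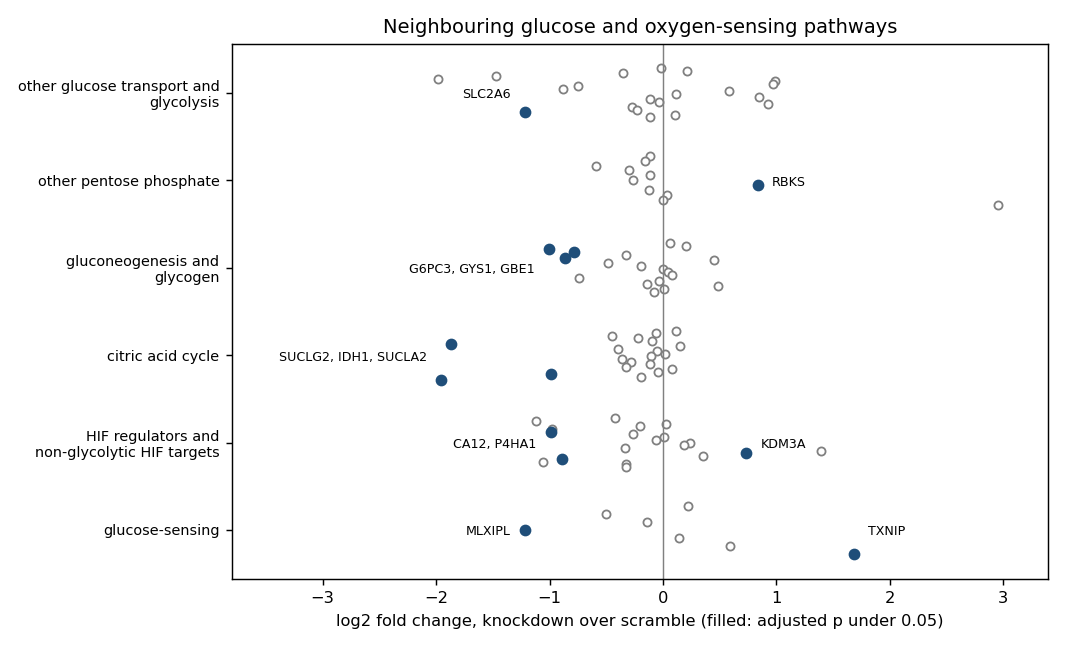
Log2 fold change, knockdown over scramble, for the tested genes of 6 neighbouring lists, 1 point per gene, with filled and named points for genes at an adjusted p under 0.05. The citric acid cycle genes SUCLG2 and IDH1 lie at -1.95 and -1.87, and TXNIP at 1.68.

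SALL4 binding was read from the authors' list of 11201 regions common to the 3 CUT&RUN libraries. A common region lay within 3 kb of the gene span for 6 of 42 genes, SLC16A3, ALDOA, LDHB, MPC2, PDHX and PDK1, against 15.2% of 20037 protein-coding genes. The median span was 22327 bp in the 42 genes and 24115 bp in all. For 3 genes a common region lay within 1 kb of the start in the promoter table, covering it in ALDOA and MPC2 and lying 108 bp from it in PDK1. In MPC2 and PDK1 each of the 3 libraries had a peak within 1 kb of the start. In ALDOA only library 3 did, with 2 peaks, although the region, 3358 bp wide, reaches over the start. The region of MPC2 (hg38, chr1:167935785-167937088) covers the promoter window printed above and had the authors' highest signal of 20.2, 15.8 and 9.90 in libraries 1, 2 and 3, the scale of which is not given in the sources used here. In LDHB the region (chr12:21646645-21649778) lay inside the gene span, 8064 bp from the start, and in SLC16A3 (chr17:82236046-82237996) 7611 bp from it.

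Of the 6 genes called on knockdown, SLC16A3 (lower) and LDHB (higher) had a common region within 3 kb, and SLC2A3, HK1, HK2 and LDHA did not. Before regions were required to be common, peaks of CUT&RUN libraries 1, 2 and 3 lay within 1 kb of the start of 4, 17 and 20 of the 38 genes with a start in the table. The shares over all 15843 starts were 14.2%, 36.3% and 35.6%, so library 1, with 74708 peaks against 398354 and 296159, was the sparse one. When all 3 libraries had to cover the same bases, 1 of 42 genes kept a region (background 2.07%). Peaks were called per library by the authors, and the IgG libraries were not used here to set a background.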

How the data were processed

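RNA of 2 SALL4 knockdown and 2 scramble libraries and 3 SALL4 CUT&RUN libraries were used, grouped by the labels. The submitters' processing notes name DESeq2, STAR, Trim Galore 0.4.5 and featureCounts, and also ChIPseeker 1.20.0, HOMER 4.10, SEACR 1.1, SAMtools 1.5, BWA 0.7.17-r1188, bedtools, deepTools 2.5.7 and Trimmomatic, with the build hg38 but without the part each tool played. Annotation release and strandedness of the counting: not given in the sources used here. As deposited, the authors' RNA files list unnormalized counts by gene symbol, per library and again as a combined matrix. For each gene the authors' own deposited comparison gives a log2 fold change, a p-value and a log odds score, per the file headers. The peak files the authors deposited hold a total and a highest signal per peak, and a list of common regions.

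Library-file counts passed filterByExpr for 25807 genes, were TMM-scaled, and were tested by the quasi-likelihood F test (robust) of edgeR 4.0.16 in R 4.3.3 with hairpin group alone in the design and a Benjamini-Hochberg threshold of 0.05. CPM use TMM-scaled library sizes, replicate differences use log2 CPM with a prior count of 2, and SEs were derived from each gene's F and log2 fold change. With the library sizes given above, the spread between libraries and not counting error sets the precision. Alternatives were RLE scaling, DESeq2 1.42.0, no filter, a filter of 5 CPM, the replicate number as a block, each library left out, and the combined matrix. On simulated counts for 24983 genes of this comparison, with 200 changed, 35.7% of those changed by a log2 fold of 1 and 67.3% of those changed by 2 were recovered, beside 15 false calls. Values per library are given for genes called, for genes with groups apart and a log2 fold change of at least 0.5 in size, and for the gene with the highest mean CPM in each role; of other lists, for called genes. MPC1, PGM1, MPC2, PFKFB4, ALDOC, BNIP3 and HIF1A fall outside this rule and were added after their values were seen. The genes and lists were chosen with earlier results of these data known. Gene spans and promoter windows come from RefSeq GRCh38.p14; 38 of 42 genes matched the promoter table, and SLC2A3, SLC16A1, PFKFB2 and PDP1 are named only. Gene lengths were not used, so levels are not compared between genes. Tables and figures used pandas 2.3.3, numpy 2.4.6 and matplotlib 3.10.9.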

Additional observations from a re-analysis of the deposited data

How the results depend on the processing

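The count of the 42 genes called lower, 5 of 42, depended on the settings. It was 8 without the filter (2.52% of all genes), 3 under the filter of 5 CPM (3.88%) and 2 on the combined matrix (3.04%). It was 0 to 13 when 1 library was left out (1.79% to 2.85% of all genes). The count called higher, 1, was 0 under the filter of 5 CPM (2.61% of all genes), which LDHB does not pass. It was 1 to 2 when 1 library was left out (1.12% to 1.48% of all genes). With the replicate number as a block, 11 were called lower (10.1% of all genes), the 5 named and SLC2A1, PFKL, PFKP, GAPDH, PGK1 and ENO2, and 3 higher (8.95%), namely LDHB, MPC1 and PDK4, and over all genes the block gave 4921 calls against 1433. The labels do not say that numbers pair the libraries; knockdown 2 minus 1 correlated with scramble 2 minus 1 over genes at r = 0.24, in only 1 difference per group. All calls numbered 731 under the filter of 5 CPM and 810 to 1191 with 1 library left out. Both RLE scaling and DESeq2 kept these counts within 1.5 times. The median log2 fold change of the 42 genes stayed between -0.40 and -0.16, and that of SALL4 between -1.87 and -1.54 with 1 library left out. The median difference between the scramble libraries was 0.36 to 0.41 under other scalings and the matrix. Genes near a SALL4 region numbered 1 where all 3 libraries had to cover the same bases, and 1 where every library's peak had to lie above its median signal, against 6.04% of protein-coding genes. Signs reversed only for genes that were not called in the fit of all 4 libraries, and only with 1 library left out. Their log2 fold changes then ran from -4.36 to 0.14 for ALDOC, -0.36 to 0.10 for TPI1, -0.53 to 0.0049 for ENO1, -0.0225 to 0.12 for ENO3, -0.27 to 0.10 for PDK2, -0.54 to 0.38 for PDK3, -0.26 to 0.15 for PDP1, -0.13 to 0.15 for PDP2, -0.12 to 0.34 for TKT, -0.0267 to 0.42 for PFKFB3 and -0.0599 to 0.79 for PGM1. The cause of these changes was not tested. Of all single-gene values under alternatives, 469 kept direction and side of the threshold, 38 lost the call, 23 gained it and 15 reversed.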
